A study of Mus musculus with 48 samples.

Results

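The replication-dependent histone genes were followed across 24 clonal mouse myeloid cultures, each measured once as a progenitor and once as a monocyte. Members were the rows of the deposited expression table whose symbol began with Hist1h, Hist2h, Hist3h or Hist4h and whose value was above 0 in at least 12 of the 48 libraries. A total of 70 rows had such a name and 67 met the rule, of 34617 rows in all. They comprised 5 genes for the linker histone H1, 20 for H2A, 18 for H2B, 12 for H3 and 12 for H4. Hist1h1t, Hist1h2ba and Hist1h4m were left out, with values above 0 in 4, 3 and 10 libraries. The members nearest to the limit were Hist1h2ao, above 0 in 14 libraries, Hist3h2bb-ps in 18 and Hist1h2aa in 20.

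The cells came from mouse bone marrow and carry ER-Hoxb8, in which the homeobox factor Hoxb8 is fused to the part of the estrogen receptor that binds hormone. The fusion holds myeloid progenitors in a dividing state and lets them mature once it is switched off, so both states of every clone share this transgene. The labels give one library of each clone as GMP (granulocyte-monocyte progenitor) cells, called progenitors here (n = 24), and the other as monocytic cells, called monocytes here (n = 24). The clones are numbered 1 to 13, 15 to 24 and 26, and the design text matches the states by clone. Growth in RPMI medium with serum and stem cell factor is the only culture stated, for both states. Each clone is a line grown from 1 cell and has 1 library per state, and the sources used here state no mouse strain, sex, age, number of animals or time of maturation. Values are TPM, transcript abundances corrected for transcript length and expressed relative to the library total, which puts genes on one scale. Levels set side by side between histone genes still rest on the annotated transcripts and on how reads are divided among near copies. The sequencing depth is unknown and a value of 0 can be a failed estimate.

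Replication-dependent histone genes supply the bulk of chromatin's histones while DNA is copied, and in dividing cells their mRNA rises on entry into S phase and is destroyed at its end. Their genes lie in clusters, lack introns as a rule, and make the only known animal mRNAs that end in a conserved stem-loop in place of a poly(A) tail. The stem-loop binding protein SLBP and the U7 small nuclear ribonucleoprotein direct the cut after that stem-loop. Some of these genes are also known to make mRNAs with a poly(A) tail, in particular in cells that have stopped dividing. The replication-independent variants, such as H2afz and H3f3b, are made through the cell cycle from ordinary polyadenylated mRNAs.

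The stem-loop is shown for members that the results turn on, because it is the feature the family shares that the choice by name did not use. Each line gives the stem in capitals and the loop and up to 5 flanking bases on either side in lower case, 5′ to 3′ on the transcript.
Hist1h1c: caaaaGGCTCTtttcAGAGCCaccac
Hist1h2ap: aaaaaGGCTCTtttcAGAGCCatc
Hist1h2ag: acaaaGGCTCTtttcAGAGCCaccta
Hist2h2aa2: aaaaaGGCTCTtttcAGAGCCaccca
Hist1h2bk: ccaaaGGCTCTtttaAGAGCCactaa
Hist1h4i: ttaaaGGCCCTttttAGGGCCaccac
Hist1h4b: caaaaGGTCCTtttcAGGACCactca
The same 16 bases stood in the linker histone Hist1h1c and in the H2A genes Hist1h2ap, Hist1h2ag and Hist2h2aa2, whether the gene was lower or higher in monocytes. The stem-loop of Hist1h2ag lies at chr13:22042483-22042498 on the minus strand and that of Hist2h2aa2 at chr3:96239784-96239799 on the minus strand (mm10). Annotated transcripts (GENCODE release M21) were found for all 67 members, and 44 held the pattern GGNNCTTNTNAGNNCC, a stem of 6 base pairs around a loop of 4 bases, searched on the transcript strand. The form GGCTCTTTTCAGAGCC was present in 26 members, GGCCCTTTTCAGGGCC in 6 and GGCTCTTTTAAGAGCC in 5. Among 21813 other protein-coding genes 11 held the pattern, or 0.0504%. For 21 members the annotated transcript ended within 60 bases of the stem-loop, for 23 it ran on further, and for 23 the model had no stem-loop. Of these 23, Hist1h4k, Hist1h2ai and Hist1h3h are modelled with little beyond the coding sequence.

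Many members have near-identical copies, which bears on every value below because the program used divides reads among copies. A median of 38.1% of a member's 31-base words occurred in no other annotated gene, and 42 of 67 members were under 50%. Every 31-base word of Hist2h2aa1 and of Hist2h2aa2 was found elsewhere. Hist1h2ap shared 93.4% of its words with Hist1h2ao, Hist1h2aj shared 93.5% with Hist1h2ai, and Hist1h2bq shared 98.3% with Hist1h2br. Hist1h2aj is annotated as an unprocessed pseudogene of 352 bases. Hist1h2al is a processed pseudogene outside the main cluster, at chr13:51202727-51203065, and shared 79.9% of its words with Hist2h2aa1. Across the 67 members, mean TPM had a Spearman correlation of -0.51 with the share of unique words and of -0.40 with transcript length, given as a description over genes that share reads and libraries.

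**Figure D1:**
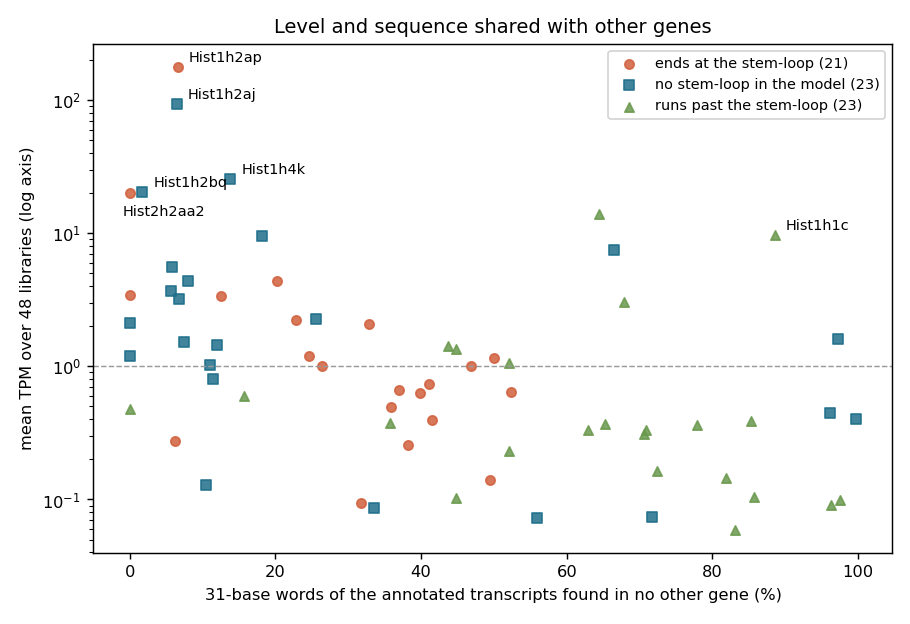
Each point is 1 of the 67 members, with the percentage of its 31-base words found in no other gene on the horizontal axis and its mean TPM over 48 libraries on a logarithmic vertical axis. Colour and shape give how the annotated transcript ends, the dashed line marks 1 TPM, and the most abundant members, Hist1h2ap and Hist1h2aj, lie at the low end of the horizontal axis.

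Progenitor markers (Kit, Cd34, Flt3, Myb, Sox4) were lower in monocytes in 5 of 5 cases and monocyte markers (Lyz2, Csf1r, Cd14, Fcgr1, Itgam) higher in 5 of 5. Of 9 markers of other cells, 3 had a mean of at least 1 TPM and all 3 (Pecam1, Pdgfrb and Hbb-bs) were lower in monocytes. Col1a1, a collagen gene of stromal cells, went from 0.011 to 1.24 TPM on average, up to 8.76 TPM in 1 monocyte library, and was higher in the fit with no filter on the mean (adjusted p = 1.0e-04). The summed level of these 9 was 13.8 to 203 TPM in progenitors and 2.64 to 22.8 TPM in monocytes, Cd3e was listed at 0 in all 48 libraries, and their part in the results was not tested. Several libraries stood apart for the histone genes. The monocyte library of clone 7 was the highest of its state for 42 of 67 members, and the progenitor library of clone 26 for 25. The progenitor library of clone 21 was listed at 0 for 53 members. In the monocyte libraries of clones 15 to 26 between 10 and 34 members were listed at 0, against 2 to 10 in those of clones 1 to 13. The clones up to 13 and from 15 on also differed in the share of TPM from mitochondrial transcripts in progenitors, 3.44 to 8.37% against 8.44 to 16.7%. In monocytes that share overlapped between the sets, at 3.06 to 11.1% and 1.98 to 25.1%. No label names these sets as batches.

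Summed over all members, histone TPM were 139 at the lowest, 569 at the median and 802 at the highest in progenitors, with a mean of 493 ± 204 (SD, n = 24). In monocytes the sum was 199 at the lowest and 968 at the highest, with a mean of 391 ± 161 (SD, n = 24). The ranges overlapped, and the sum was lower in the monocytes of 18 of 24 clones. Members took 0.0494% of all TPM in progenitors and 0.0392% in monocytes. In clones 1 to 13 the sum was 636 ± 73.2 (SD, n = 13) in progenitors and 437 ± 189 in monocytes, and in clones 15 to 26 it was 324 ± 176 (SD, n = 11) and 336 ± 106. Hist1h2ap and Hist1h2aj together made up 65.5% of the histone TPM of a progenitor library on average and 50.6% of that of a monocyte library. Without these 2 genes the sum was 159 ± 60.2 in progenitors and 186 ± 96.5 in monocytes (SD, n = 24). In bulk RNA, fewer cells that express a gene and less RNA per cell cannot be told apart.

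**Figure D2:**
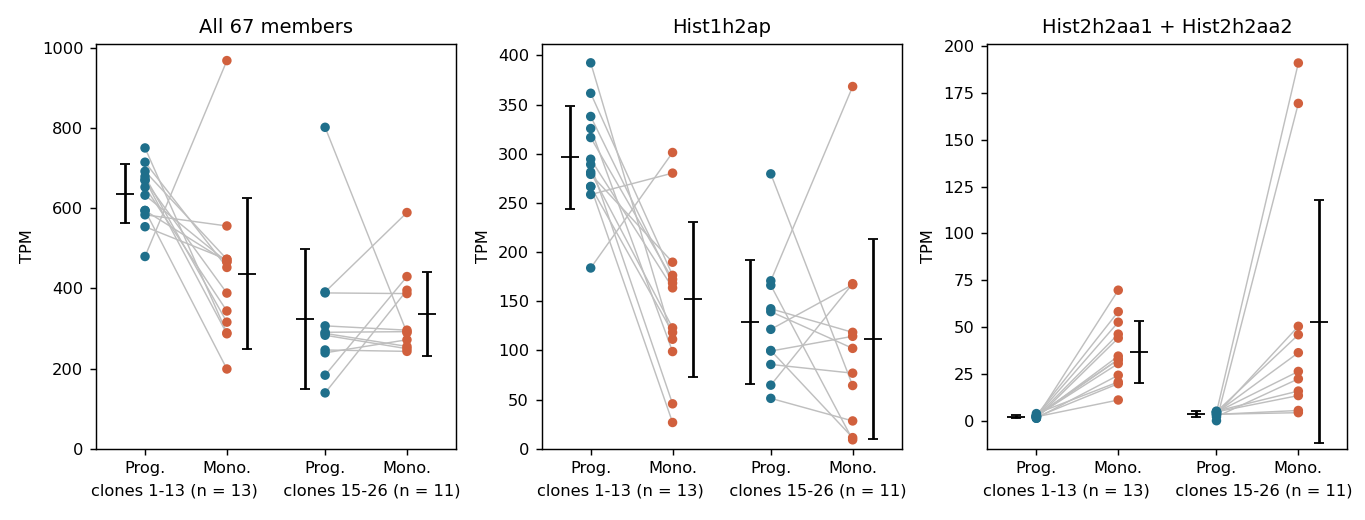
TPM of all 67 members summed (left), of Hist1h2ap (middle) and of Hist2h2aa1 plus Hist2h2aa2 (right) in each library, with a line joining the progenitor (blue) and monocyte (orange) library of a clone, and black marks giving mean and SD for clones 1 to 13 (n = 13) and clones 15 to 26 (n = 11). The Hist2h2aa pair was higher in the monocytes of 24 of 24 clones, whereas the sum over all members was lower in 18 of 24.

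Histone genes did not all move the same way between states. Of 32 members with a mean of at least 1 TPM, 12 were lower in monocytes, 5 were higher and 15 did not pass an adjusted p of 0.05. Over all 11072 genes tested, 36.5% were lower and 32.4% were higher, so the count of lower members is close to the background and that of higher members is under it. The median log2 change of the 32 members was -0.27, against -0.06 for all genes. Without clones 7, 21 and 26, 16 were lower and 4 higher, against 36.3% and 31.6% of all genes. Those clones were picked because their histone values stood apart. Calls gained or lost without them, here and below, are thus descriptions and no independent support. With no filter on the mean all 67 members entered, and 15 were lower and 11 higher, against 30.9% and 24.3% of all 19865 genes. Log2 changes here are differences of log2(TPM + 1), which understate the change of genes at low levels.

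**Figure D3:**
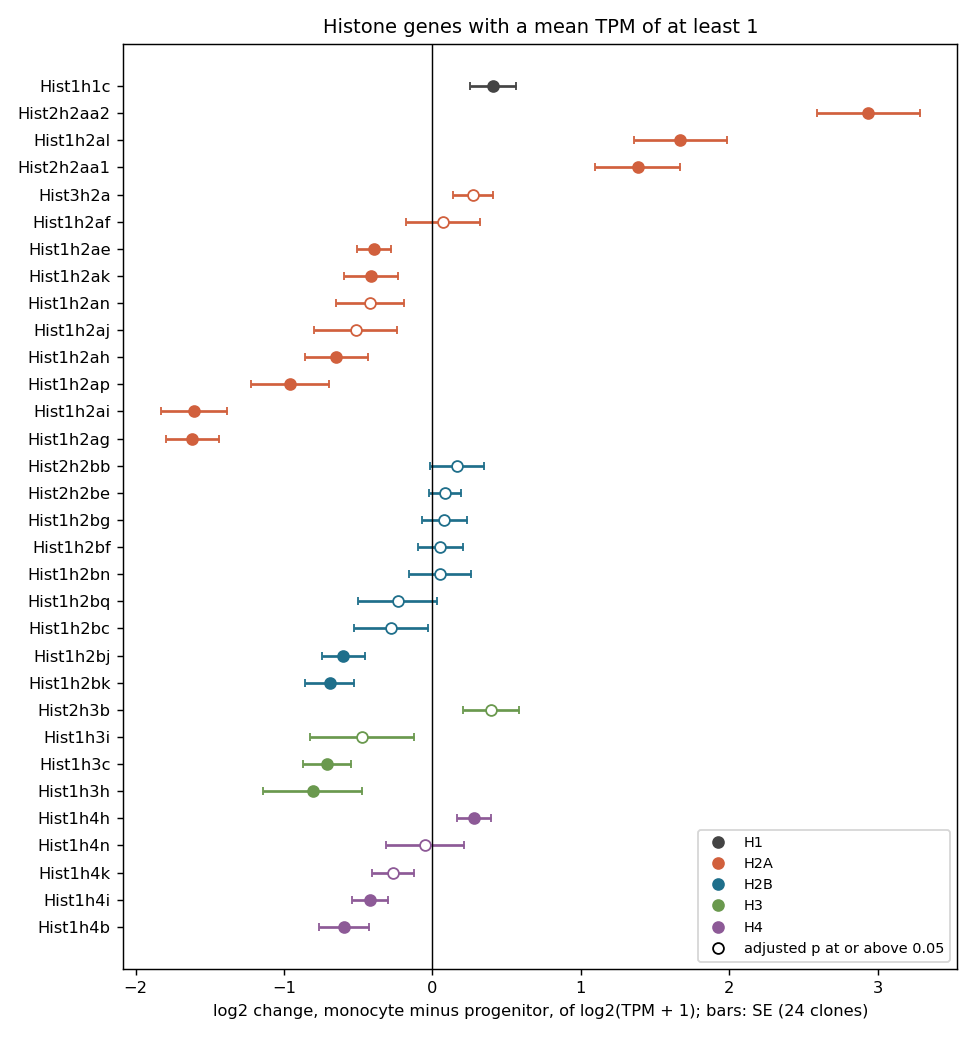
Log2 change of log2(TPM + 1), monocyte minus progenitor, for the 32 members with a mean of at least 1 TPM, by histone class and with bars giving the SE over 24 clones. Filled points passed an adjusted p of 0.05 (limma with clone as a block). As filled points, 6 of 13 H2A genes lie to the left of 0 and 3 to the right, among them Hist2h2aa2 at 2.94. Of all genes tested, 36.5% were lower and 32.4% higher.

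Hist1h1c, which encodes a linker histone that binds DNA between nucleosomes, made up 81.4% of H1 TPM in progenitors and 91.0% in monocytes on average. Its level ran from 1.75 TPM over a median of 7.39 to 17.9 in progenitors, and from 3.34 over 9.41 to 23.6 in monocytes. The ranges overlapped widely, and 16 of 24 clones were higher as monocytes. The change was 0.41 on the log2 scale (SE 0.15, adjusted p = 0.0203) and passed neither without clones 7, 21 and 26 (adjusted p = 0.0593) nor without the clone block (adjusted p = 0.0630). The other H1 members stayed under a mean of 1 TPM. In the fit without that filter Hist1h1a (0.63 to 0.18 TPM, lower in 20 clones) and Hist1h1b (0.55 to 0.35 TPM, lower in 20) fell, with adjusted p of 1.1e-05 and 0.0145, and Hist1h1d and Hist1h1e did not pass.

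H2A, 1 of the 4 histones of the nucleosome core, held most histone TPM in both states, 73.0% in progenitors and 71.4% in monocytes on average. Hist1h2ap was the most abundant member. It ranged from 51.3 TPM over a median of 262 to 393 in progenitors and from 9.12 over 118 to 368 in monocytes. The lowest monocyte values, in clones 15 and 20, were below every progenitor value, while 6 clones were higher as monocytes. The mean went from 220 ± 102 to 134 ± 90.4 TPM (SD, n = 24), a log2 change of -0.96 (SE 0.26, adjusted p = 0.0020). With Hist1h2ao, its near copy, added in, the means were 220 and 134 TPM, so the near copy adds little to either mean. In clones 15 to 26 alone the change did not pass (adjusted p = 0.203).

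The largest falls among the members were in Hist1h2ag and Hist1h2ai. Hist1h2ag ranged from 0 over 6.60 to 31.9 TPM in progenitors and from 0 over 1.42 to 6.20 TPM in monocytes. No clone was higher as monocytes: 23 were lower, and clone 21 was listed at 0 in both states. The change was -1.62 (SE 0.18, adjusted p = 5.7e-09). Hist1h2ai went from 6.97 ± 4.54 to 1.78 ± 2.37 TPM, lower in 22 of 24 clones, with a change of -1.61 (SE 0.22, adjusted p = 3.1e-07). Hist1h2aj, which shares nearly all its sequence with Hist1h2ai, went from 114 ± 56.7 to 71.7 ± 41.1 TPM and did not pass (adjusted p = 0.104), though it did without clones 7, 21 and 26 (change -0.71, adjusted p = 0.0050). The 2 genes summed gave 121 ± 58.8 and 73.5 ± 42.1 TPM, lower in 20 of 24 clones. Hist1h2ah, Hist1h2ak and Hist1h2ae also fell, by 0.65, 0.41 and 0.39 on the log2 scale. The call of Hist1h2ak (adjusted p = 0.0453) was lost with no filter on the mean (0.0609), without the clone block (0.115) and in either set of clones alone (0.220 and 0.141). Hist1h2ae changed by -0.02 in clones 15 to 26.

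Hist2h2aa1 and Hist2h2aa2 went the other way. They are copies of an H2A gene on opposite strands of chromosome 3, and every 31-base word of Hist2h2aa2 is also in Hist2h2aa1. The annotated Hist2h2aa2 ranged from 0 over 2.12 to 4.44 TPM in progenitors and from 0 over 29.2 to 164 TPM in monocytes, higher in 22 of 24 clones. In clone 8 the monocyte value was 0 for Hist2h2aa2 and 58.2 TPM for Hist2h2aa1, while in the other 23 monocyte libraries Hist2h2aa2 had the larger value, so single-copy values of this pair are uncertain. The pair summed ran from 0 over 2.67 to 5.11 TPM in progenitors and from 4.29 over 32.7 to 191 TPM in monocytes. It was higher in the monocytes of 24 of 24 clones, with a ratio of means of 15.3, and 1 monocyte library, that of clone 22, lay within the range of the progenitors. The changes of the single genes were 2.94 (SE 0.34, adjusted p = 2.0e-08) for Hist2h2aa2 and 1.38 (SE 0.29, adjusted p = 0.00012) for Hist2h2aa1. Hist1h2al, the pseudogene that shares much of this sequence, went from 2.95 ± 1.91 to 16 ± 15 TPM, a change of 1.67 (SE 0.32, adjusted p = 3.5e-05). It was higher in 20 clones and lower in 3. In clones 15 to 26 alone its change of 1.185 did not pass (limma, adjusted p = 0.107). Hist2h2aa1, Hist2h2aa2 and Hist1h2al together gave 5.82 ± 2.21 and 60.1 ± 58.0 TPM, a ratio of 10.3, and were higher in 24 of 24 clones.

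H2B pairs with H2A in the nucleosome. Its most abundant gene, Hist1h2bq, ranged from 0.20 over 22.8 to 43.2 TPM in progenitors and from 9.08 over 14.6 to 44.3 TPM in monocytes, and did not pass (adjusted p = 0.434). Among 9 H2B genes tested, 2 were lower and none was higher, against 36.5% and 32.4% of all genes tested. Hist1h2bk went from 1.68 ± 1.15 to 0.72 ± 1.09 TPM, lower in 20 clones, with a change of -0.69 (SE 0.17, adjusted p = 0.00066). Hist1h2bj went from 2.72 ± 2.26 to 1.43 ± 1.32 TPM, lower in 19 clones, with a change of -0.60 (SE 0.14, adjusted p = 0.00061). For both, the highest progenitor library was clone 26 and the highest monocyte library clone 7.

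H3 and H4 form the tetramer at the centre of the nucleosome. Hist1h3h, the most abundant H3 gene, went from 7.47 ± 7.37 to 3.68 ± 4.66 TPM, lower in 17 of 24 clones. Its ranges, 0 to 37.4 and 0 to 22.8 TPM, overlapped throughout, and the change of -0.81 (SE 0.34, adjusted p = 0.0345) did not pass with a pseudocount of 0.1 (adjusted p = 0.158). Hist1h3c went from 1.89 ± 1.55 to 0.81 ± 1.24 TPM, lower in 20 clones, a change of -0.71 (SE 0.16, adjusted p = 0.00034). Hist1h4k, the most abundant H4 gene, ranged from 10.8 over 26.4 to 55.2 TPM in progenitors and from 7.37 over 19.9 to 83.8 TPM in monocytes. It was lower in 17 clones and did not pass (change -0.27, adjusted p = 0.0897), though it did without clones 7, 21 and 26 (adjusted p = 0.0276). Hist1h4i fell from 15.9 ± 6.47 to 11.8 ± 5.19 TPM (change -0.42, adjusted p = 0.0032), and Hist1h4b from 3.0 ± 3.4 to 1.44 ± 1.41 TPM (change -0.60, adjusted p = 0.0031). In clones 15 to 26 alone Hist1h4b changed by -0.24 and did not pass (limma, adjusted p = 0.469), with 6 clones lower and 5 higher. Hist1h4h went up from 0.92 ± 0.50 to 1.39 ± 0.90 TPM (change 0.28, adjusted p = 0.0298), a call that was lost without clones 7, 21 and 26 (adjusted p = 0.145).

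The members lie in 4 gene clusters, with Hist1 on chromosome 13, Hist2 on chromosome 3, Hist3 on chromosome 11 and Hist4 on chromosome 6. All 12 members that were lower are named Hist1, where 26 of 53 were tested and 3 were higher. One of those 3 is Hist1h2al, which lies outside the cluster and shares most of its sequence with Hist2h2aa1, and without it 25 of 52 were tested and 2 were higher. In Hist2, 5 of 10 were tested, 2 were higher and none was lower, and the median change was 0.39. Over all genes tested, 32.4% were higher and 36.5% lower. With no filter on the mean, 6 of the 10 Hist2 genes were higher and none was lower, while 5 of the 53 Hist1 genes were higher and 14 lower. Over all 19865 genes of that fit, 24.3% were higher and 30.9% lower. The Hist2 genes that rose at low levels were Hist2h3c1 (0.24 to 0.72 TPM, adjusted p = 0.0014), Hist2h3c2 (0.15 to 0.60 TPM, adjusted p = 0.00032), Hist2h2ac (0.31 to 0.67 TPM, adjusted p = 0.0096) and Hist2h4 (0.04 to 0.16 TPM, adjusted p = 0.0050). Hist2h2aa1, Hist2h2aa2 and Hist2h3c1 had no 31-base word of their own, and Hist2h3c2 shared 64.2% of its words with Hist2h3c1. The 6 Hist2 genes are thus not 6 separate readings. In clones 15 to 26 Hist2h3c1 was higher as monocytes in 5 clones and lower in 6. Members whose annotated transcript ends at the stem-loop were found in both directions, with 5 lower and 3 higher of 10 tested. The difference between clusters was not tested.

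H2A and H2B genes of the clusters often stand head to head, sharing a short stretch from which both are transcribed outwards. There were 13 such pairs with 172 to 301 bases between the annotated starts. In the fit without a filter on the mean, both genes were lower in 3 pairs, Hist1h2ag with Hist1h2bj, Hist1h2ah with Hist1h2bk, and Hist1h2ai with Hist1h2bl, and the changes had the same sign in 8 pairs. The pair of Hist1h2ap, which fell by 0.96, and Hist1h2br, which changed by 0.07 (adjusted p = 0.349), did not. Of all 19865 genes in that fit, 30.9% were lower and 24.3% higher. Whether the genes of a pair moved together was not tested. The stretch between the largest faller and its partner is shown with the stretch before Hist2h2aa2, which rose and is in none of the 13 pairs. Each is given as the 250 bases before the RefSeq start (build GRCm38.p6), with CCAAT boxes on either strand in capitals. A stretch between 2 genes is thus set beside that of 1 gene.
Hist1h2ag: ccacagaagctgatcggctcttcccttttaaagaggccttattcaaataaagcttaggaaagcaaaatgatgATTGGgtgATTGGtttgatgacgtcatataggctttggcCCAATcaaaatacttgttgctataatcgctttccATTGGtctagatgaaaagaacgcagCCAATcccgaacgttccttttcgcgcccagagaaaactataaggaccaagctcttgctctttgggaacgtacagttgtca
Hist2h2aa2: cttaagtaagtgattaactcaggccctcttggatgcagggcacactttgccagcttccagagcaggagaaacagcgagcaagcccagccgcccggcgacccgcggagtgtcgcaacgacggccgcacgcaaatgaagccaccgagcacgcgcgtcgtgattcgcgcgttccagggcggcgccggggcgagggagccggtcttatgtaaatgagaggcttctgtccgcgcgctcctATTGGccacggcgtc
The first lies at chr13:22042950-22043199 and held 5 CCAAT boxes, and the second at chr3:96240375-96240624, both on the minus strand, and held 1. The RefSeq start of Hist2h2aa2 is 98 bases from that of GENCODE, so the window depends on the annotation. RefSeq promoters, 250 bases before to 50 after the start, were matched for 59 members. Windows of head-to-head genes can cover the same bases, which are then counted for each gene. On either strand CCAAT occurred in 86.4% of them against 37.9% of all 27025 RefSeq genes, TATAAA in 55.9% against 14.2%, and the octamer ATTTGCAT in 20.3% against 1.75%. The octamer was found in 7 of 18 H2A and 5 of 15 H2B windows and in none of those of H1, H3 and H4, and CCAAT in only 3 of 11 H4 windows. These are matches of letters and say nothing about binding.

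Genes that make, process or carry histones were read from the same fit, in which 36.5% of all genes were lower and 32.4% higher. Of 13 measured genes for histone mRNA transcription and 3′ end processing, 3 were lower and 1 was higher. Npat, the coactivator that switches on histone genes at S phase entry, went from 3.21 ± 1.96 to 1.63 ± 0.77 TPM (change -0.59, adjusted p = 0.0017). Its change was -0.21 in clones 1 to 13, which did not pass (adjusted p = 0.25), and -1.03 in clones 15 to 26, and the difference between the sets did not pass (adjusted p = 0.0533). Cstf2, a subunit of the cleavage machinery, fell by 1.22 on the log2 scale, Lsm10, a protein of the U7 particle, rose by 0.71, and Slbp had 43.8 ± 9.49 and 40.5 ± 14.0 TPM (adjusted p = 0.428). Among 17 histone chaperones and importers, 13 were lower and 1 was higher. Nap1l1, an H2A-H2B chaperone, went from 199 ± 48.7 to 58.6 ± 25.9 TPM (change -1.86, adjusted p = 9.8e-13). The importin Ipo4 and the H3-H4 chaperone Asf1a fell by 1.73 and 1.56. Of 10 replication-independent variants 5 were lower and 1 higher, with the largest falls in H2afy (change -1.90), H1fx (-1.67) and H2afv (-0.75). Of 22 S phase genes 15 were lower and none higher, led by Mcm7, Mcm6 and Mcm2, subunits of the replicative helicase (changes -1.79, -1.72 and -1.64). Of 8 mitosis genes 5 were lower and none higher, led by Ccnb1, Bub1 and Aurkb (changes -0.88, -0.82 and -0.79). The chaperone and S phase lists thus had a median change of -0.92 and -0.90, against -0.27 for the 32 histone genes. This describes lists that share these libraries. Many of the 32 were at a few TPM, where log2(TPM + 1) understates a change, so these medians do not compare sizes of change. Hist1h2bk, for one, went from 1.68 to 0.72 TPM at a change of -0.69.

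The change between states was also compared between clones 1 to 13 and clones 15 to 26. Within the first set 14 members were lower and 4 higher, against 32.8% and 38.8% of all genes. Within the second 2 were lower and 3 higher, against 27.4% and 17.8%, with no member called in opposite directions. The difference itself passed for 4 of 32 members, against 11.5% of all genes, and for 8 at an unadjusted p under 0.05, against 28.8%. For all 4 the change was the more positive in clones 15 to 26. Hist1h2bc was 10.2 ± 2.59 TPM in progenitors and 4.41 ± 1.62 in monocytes of clones 1 to 13 (SD, n = 13), and 5.72 ± 2.42 and 9.67 ± 5.73 in clones 15 to 26 (SD, n = 11). It was lower in 11 of 13 clones of the first set and higher in 7 of 11 of the second, and the changes differed by 1.71 (SE 0.38, adjusted p = 0.0059). Hist1h2bq was lower in 12 of 13 clones and higher in 7 of 11, a difference of 1.56 (SE 0.44, adjusted p = 0.0249). Hist1h1c was 11.2 ± 3.69 and 11.1 ± 3.88 TPM in the first set and 4.83 ± 1.84 and 10.8 ± 6.71 in the second, where 10 of 11 clones were higher, a difference of 0.91 (SE 0.26, adjusted p = 0.0243). Hist1h2ae was lower in 13 of 13 clones and then in 4 of 11, a difference of 0.69 (SE 0.19, adjusted p = 0.0194). Without clones 7, 21 and 26 the difference passed for 7 members, against 10.7% of all genes, and for Hist1h1c it did not (adjusted p = 0.0511). The mitochondrial share of progenitors given above moves with the sets, and its part in this was not tested.

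**Figure D4:**
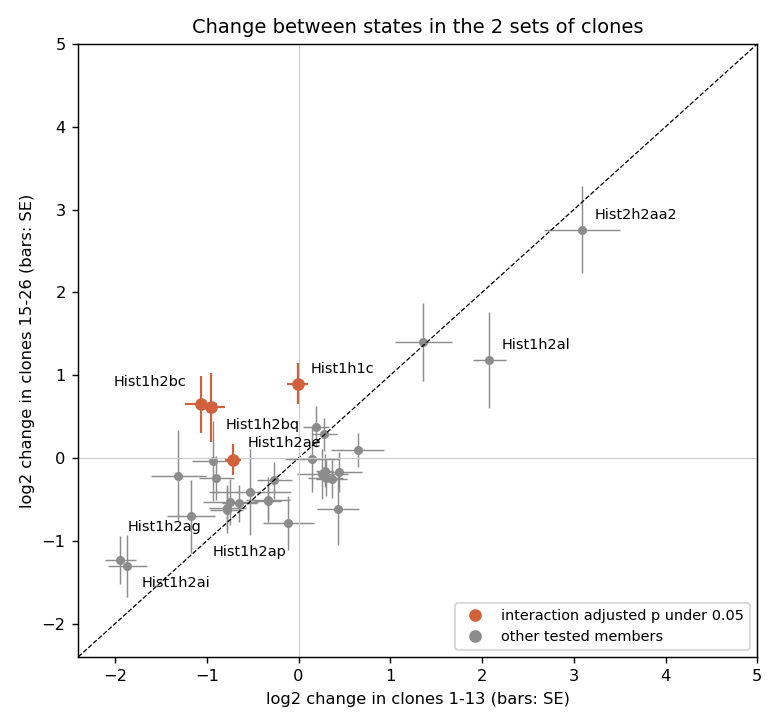
Log2 change between states in clones 1 to 13 (horizontal, n = 13) and in clones 15 to 26 (vertical, n = 11) for the 32 tested members, with bars giving the SE and the dashed line equal change. Orange points passed the test of the difference (adjusted p under 0.05) and lie above the line, and Hist1h2ag, Hist1h2ai and Hist2h2aa2 lie on the same side of 0 in both sets.

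Monocyte cultures differed in how much of the cell cycle programme they expressed, and histone genes were correlated with it in either direction. The cell cycle level was taken as the mean log2(TPM + 1) of the 30 S phase and mitosis genes, a comparison chosen after seeing the data. Among monocytes it ran from 2.45 in clone 15, 2.73 in clone 21 and 3.14 in clone 20 to 5.29 in clone 17. Those 3 low libraries had 11.4, 28.3 and 9.12 TPM of Hist1h2ap, and 45.0, 148 and 164 TPM of Hist2h2aa2, which did not pass over the 24 libraries (r = -0.42, permutation test, adjusted p = 0.137) and had an r of 0.09 and -0.76 within the sets. Over the 24 monocyte libraries, 5 of 32 members were higher with the cell cycle level at an adjusted p under 0.05 and 3 were lower, against 14.9% and 4.15% of 10823 genes (two-sided permutation tests, Benjamini-Hochberg over all genes), so the share of positive members is close to the background. All 5 positive members are H2A genes, as are 13 of the 32 tested: Hist1h2ap, Hist1h2af, Hist1h2ah, Hist1h2aj and Hist1h2ag. Their share of 31-base words in no other gene ran from 5.69% in Hist1h2af to 20.2% in Hist1h2ag. They are thus not 5 separate readings. For Hist1h2ap Pearson's r was 0.78 (permutation p = 2e-05, adjusted p = 0.00046) and Spearman's rho 0.56 (permutation p = 0.0050). Without clones 15 and 21, the farthest from the median, r was 0.66, and it was 0.77 and 0.76 within the sets of clones.

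The negative members were Hist3h2a, Hist1h2bc and Hist2h2aa1. Hist3h2a, an H2A gene of the cluster on chromosome 11, had an r of -0.69 (permutation p = 1.0e-04, adjusted p = 0.0018) and a rho of -0.61 (permutation p = 0.0018). Its r was -0.51 without clones 15 and 21, and -0.81 and -0.64 within the sets. For Hist1h2bc r was -0.69 (permutation p = 0.00034, adjusted p = 0.0046) and rho -0.55 (permutation p = 0.0059), with -0.54 without clones 15 and 21 and -0.64 and -0.72 within the sets. For Hist2h2aa1 r was -0.55 (permutation p = 0.0054, adjusted p = 0.0335) and rho -0.55 (permutation p = 0.0059), with -0.66 without clones 15 and 21. Since Hist2h2aa2, its copy, did not pass, the value of the single copy is uncertain. Without clones 7, 21 and 26, 3 members were higher (Hist1h2ap, Hist1h2af and Hist1h2ah) and 3 lower, against 8.93% and 3.32% of 10791 genes. Hist1h2ag (adjusted p = 0.0632), Hist1h2aj (adjusted p = 0.155) and Hist2h2aa1 (adjusted p = 0.175) no longer passed, and Hist1h2bq passed as lower (r = -0.59, permutation test, adjusted p = 0.0448). The libraries share the scaling of TPM, and how far other properties of the low libraries moved with these genes was not tested. Among progenitors 3 members were higher with the level (Hist2h2be, Hist3h2a and Hist1h2af) and none was lower, against 70.5% and 0.987% of 10642 genes, and the median r was 0.05 against 0.66. The progenitor level of clone 24 lay 43.0% of the range below the next, and without clones 9 and 24, the 2 farthest from the median, r of the members ran from -0.58 to 0.63. It was then 0.61 for Hist2h2be, 0.35 for Hist1h2af and 0.14 for Hist3h2a, so the last 2 calls lean on those libraries. Without clones 7, 21 and 26, 4 members were higher with the progenitor level and 1 lower, against 77.4% and 1.37% of 10360 genes.

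**Figure D5:**
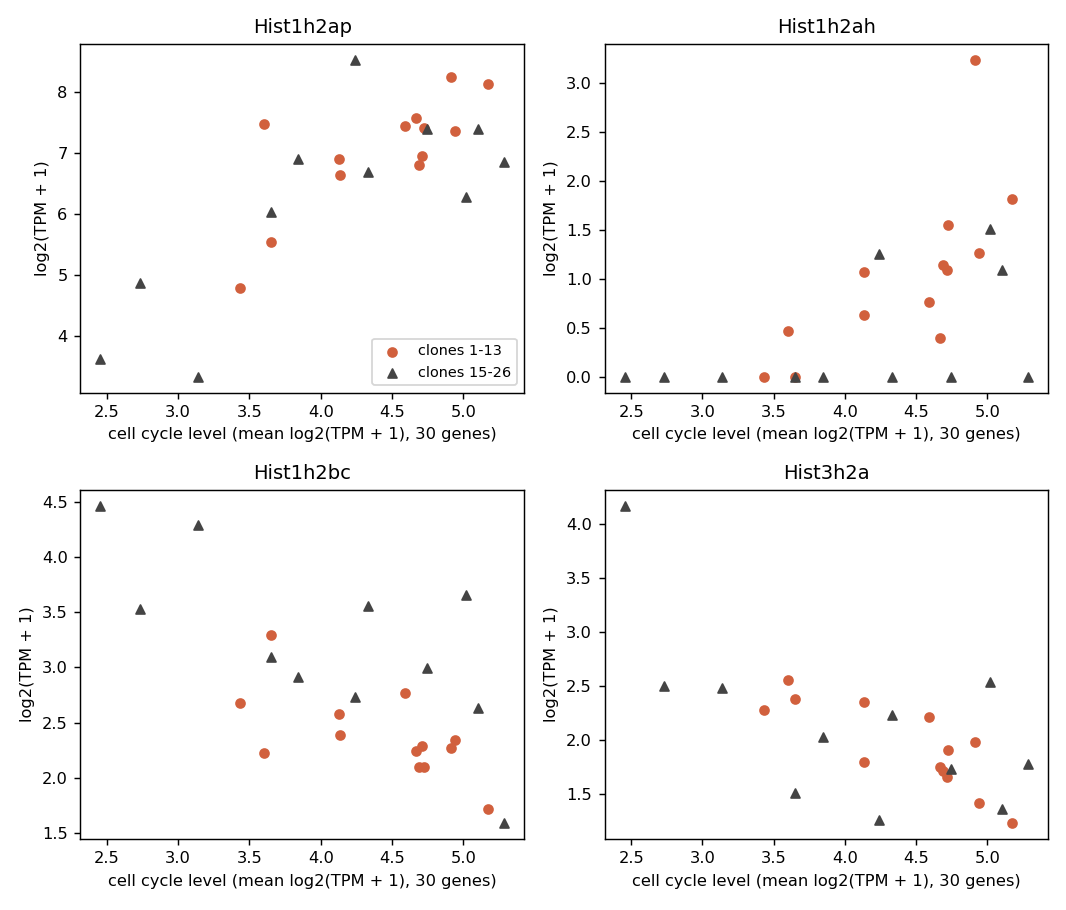
Log2(TPM + 1) of Hist1h2ap, Hist1h2ah, Hist1h2bc and Hist3h2a against the cell cycle level (mean log2(TPM + 1) of 30 S phase and mitosis genes) in the 24 monocyte libraries, with circles for clones 1 to 13 and triangles for clones 15 to 26. The upper genes go up with the level and the lower genes go down, and the 3 libraries under 3.2 on the horizontal axis are clones 15, 20 and 21.

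Differences between clones were followed from progenitor to monocyte by the correlation of a gene's 2 values over the 24 clones. None of 32 members passed (one-sided permutation test, Benjamini-Hochberg), against 4.42% of 10473 genes, and 9 members had an unadjusted p under 0.05, against 19.7%. The median r of the members was 0.18, close to the 0.13 of all genes, and single members ran from -0.42 to 0.55. Within clones 1 to 13 the median of the members was -0.10, against -0.048 for all genes. Within clones 15 to 26 it was 0.28, against 0.145 for all genes. With clones 19, 21, 24 and 26 left out, 5 members passed, against 6.88% of 10471 genes.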

How the data were processed

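The authors deposited 1 table of TPM per gene symbol for 48 RNA-seq libraries; Salmon and mm10 are named per the submitters' processing notes, while no source used here states the annotation release or whether poly(A) selection or rRNA depletion was used. A total of 26 rows named as dates were left out. State changes were tested with limma 3.58.1 (R 4.3.3) two-sided, blocked by clone and with a mean-variance trend, on log2 TPM after adding 1, for 11072 genes with a mean of at least 1 TPM and Benjamini-Hochberg adjustment; the difference between sets of clones was an interaction in the same model. Correlations used 100000 permutations in Python 3.11.15 (numpy 2.4.6). The state fit and the correlations were tried on simulated data, and the interaction was not.

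The design text pairs the states by clone. With each set centred, the deviations of a clone's 2 libraries had a median correlation of 0.10 over genes, and 12 of 24 were over 0.1. P-values measure the spread between clones; nothing says that they came from separate animals.

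Members, lists, sets and tests were chosen with earlier results of these data known. Per class, the most abundant member and up to 3 falls and 3 rises were named, with members passing the interaction and up to 3 genes per list. Hist1h2aj, low-level members and pair sums were chosen after their values were seen.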

Additional observations from a re-analysis of the deposited data

Results flagged for a closer look

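For 4 histone genes the change between states differed between the 2 sets of clones by an interaction test in limma over all genes, which called 11.5% of all genes. The change in clones 15 to 26 minus that in clones 1 to 13 was 1.71 on the log2 scale for Hist1h2bc, 0.69 for Hist1h2ae, 0.91 for Hist1h1c and 1.56 for Hist1h2bq. Without clones 7, 21 and 26 Hist1h1c lost this call (limma, adjusted p = 0.0511). The sets are known from the data and not from a label.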

How the results depend on the processing

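The count of members higher in monocytes, 5 of 32, was 3 in clones 15 to 26 alone, 3 after rescaling TPM without mitochondrial, Gm and pseudogene rows, 3 of 24 with a mean of at least 1 TPM in each state, 3 of 10 with a mean of at least 5 TPM and 11 of 67 with no filter on the mean. The count of lower members, 12, was 2 in clones 15 to 26 alone and 3 of 10 with a mean of at least 5 TPM. Fewer clones or genes enter some of these fits. Of all genes, 32.4% were higher and 36.5% lower in the main fit. The shares were 17.8% and 27.4% in clones 15 to 26 alone, and 24.3% and 30.9% with no filter on the mean. For the other settings listed so far the shares are not given here. These counts alone thus do not show a change particular to the members. With no replicate block the counts were 4 higher and 11 lower, and Hist1h1c and Hist1h2ak lost their calls. Members with a difference between sets, 4, were 7 without clones 19, 21, 24 and 26 and 7 without clones 7, 21 and 26. That test called 11.5% of all genes in the main fit and 10.7% without clones 7, 21 and 26. Members with a clone correlation between states, 0, were 1 with a pseudocount of 0.1 and 5 without clones 19, 21, 24 and 26. The share of all genes was 4.42% in the main test and 6.88% without clones 19, 21, 24 and 26. Members that went up with the cell cycle level, 5, were 3 without clones 7, 21 and 26, and those that went down were 3 in both. Among all genes 14.9% went up and 4.15% down, and 8.93% and 3.32% without clones 7, 21 and 26. The change of Hist1h1c was -0.0086 in clones 1 to 13 alone. The cause was not tested for these. The rescaling moved the median change of all genes from -0.06 to -0.25. Of the other alternatives for the changes of named members, 173 kept the call or its absence and 20 lost the call. Of those 20, 10 were in clones 15 to 26 alone, and 8 other alternatives gained a call. Where neither fit made a call, direction was not compared. Hist1h2bq, for one, changed by -0.24 over all clones and by 0.61 in clones 15 to 26. TPM keep no depth, so counting error is unknown.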
